A study of Canis lupus familiaris with 22 samples.

Results

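The HOX genes encode transcription factors that carry a homeodomain and are known for setting position along the axis from head to tail in the embryo. They lie in clusters named A to D, and the paralogue number of a gene follows its place in the cluster, with low numbers used toward the head and high numbers toward the tail and the urogenital tract. Adult tissues, the bladder among them, are known to keep much of the HOX pattern of the region they formed from. The proteins bind DNA with cofactors of the PBX and MEIS families, and Trithorax and Polycomb complexes keep their genes on or off.

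HOX genes were chosen by symbol, as genes that are the only gene named by at least 1 probe set of the canine array, and 21 of the 15115 genes measured met this rule. They were read by 30 probe sets, sets of short probes that report 1 transcript. The HOXA cluster had 7 of the genes, the HOXB cluster 8, the HOXC cluster 5 and the HOXD cluster 1, which was HOXD10. The reference table of dog genes (UU_Cfam_GSD_1.0) lists 38 HOX genes, 11 in cluster A, 10 in B, 9 in C and 8 in D. The other 17, among them HOXA10, HOXA11, HOXB3, HOXC6, HOXC9, HOXD9, HOXD11 and HOXD13, had no probe set that names them alone and were not analysed here. In the reference, HOXB8 overlaps HOXB9, HOXA3 overlaps HOXA4 and HOXA5, HOXC4 overlaps HOXC8, and the unmeasured HOXB3 overlaps HOXB4 and HOXB6. Probes in such stretches may read more than 1 gene. Of the 30 probe sets, 5 carry the array maker's mark for probes shared by several transcripts and 1 the mark for probes that may cross-match.

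The samples were 18 biopsies of naturally occurring invasive urothelial carcinoma (iUC), the bladder cancer of dogs, taken by cystoscopy before therapy, and 4 samples of normal bladder from healthy dogs without tumors. Each sample was put on an array of its own, and the labels call the samples of either group biological replicates. Breed, age and genotype were not given in the sample labels. Both groups were pieces of tissue with a mixture of cells, so fewer cells of a type and less RNA per cell cannot be told apart. The question was how the members of the HOX family differ between cancer and normal bladder, and among the cancers.

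All values are log2 values that the authors centred on the median of each probe set over the 22 arrays, so a value gives the distance of a sample from the middle of all samples and no level of expression. A difference is the mean of iUC minus the mean of normal bladder on that scale. A gene is called higher or lower at an adjusted p of 0.05 or below with limma and a fold change of 2 or more. The number of normal arrays limits the precision of every difference.

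Some arrays stood apart on controls that no dog transcript matches. The 17 Tag control probe sets, which read artificial sequences, had means of 0.277 to 0.460 on 7 iUC arrays, of -0.128 to 0.131 on the other 11 and of -0.215 to -0.0768 on the normal arrays. The former are called the arrays of high Tag signal and the 11 the arrays of lower Tag signal. The study parts its cancers into groups of the same sizes without naming the samples of each, so whether these arrays are those groups is not known here, and they are used only as sets of arrays. On the arrays of high Tag signal 13 control probe sets for GAPDH and actin were lower as well (-1.21 to -0.626, against -0.363 to 0.316 on the other iUC arrays). The labels of the iUC samples and of normal bladder replicate 1 share an ending that replicates 2 to 4 lack. The closest pair of normal arrays, replicates 3 and 4, had a correlation of 0.934 over the probe sets, against 0.761 for the pair after it. Replicate 1 had correlations of 0.426 to 0.617 with the other normal arrays. Results are given with and without the arrays of high Tag signal.

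Markers of smooth muscle, of fibroblasts and matrix and of urothelium also separated the groups. Of 20 smooth muscle genes 17 were called lower in iUC, and their mean lay between 2.40 and 4.19 in normal bladder and between -0.499 and 1.03 in iUC. Of 17 fibroblast and matrix genes 14 were lower and 1 was higher, and of 19 urothelial genes 11 were higher and the other 8 did not pass the test. Endothelial genes had 3 of 12 lower, leukocyte genes 2 of 15 and nerve and glia genes 1 of 7. Over all genes 3.68% were called higher and 8.64% lower, so the leukocyte and the nerve and glia counts lay near the latter share. The part of cell content in the HOX results between the groups was not tested.

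HOXD10 was the one HOX gene called between iUC and normal bladder, and it was lower in iUC. Of the 21 genes, 0 were called higher, 1 was called lower and 20 did not pass the test. Over all genes 12.3% were called, 3.68% higher and 8.64% lower, and 1 of 21 is no larger a share. At an unadjusted p under 0.05 from limma 12 HOX genes were higher and 2 lower, 14 of 21, while 48.7% of all genes had such a p. An ordinary t-test, without the moderation of variances that limma and the study's methods apply, called HOXD10 alone among the HOX genes. It called 11.9% of all genes. Without a limit on the fold change 8 genes had an adjusted p of 0.05 or below in the direction of higher values (18.2% of all genes) and 2 in the direction of lower values (17.5%). In 0 of the 21 genes did all 18 iUC samples lie above every normal sample (3.22% of all genes), and in 0 did all 18 lie below (4.47%). The 8 genes with higher values were HOXA3, HOXA9, HOXA13, HOXB1, HOXB4, HOXB13, HOXC10 and HOXC12, and those with lower values were HOXA7 and HOXD10. For each of these genes the adjusted p was above 0.05 in at least 1 other setting of the analysis.

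The differences of the other HOX genes were under 2-fold and mostly above 0. The difference was above 0 in 17 of the 21 genes, and above the median of all genes, 0.08, in 16. The latter count was 15 after quantile normalization, 16 after scaling to the 75th percentile, which moves all genes alike, and 14 with array weights. The median difference of the HOX genes was 0.36. Without the 7 arrays of high Tag signal the median was 0.18, against 0.06 over all genes, and 16 of the 21 differences were nearer to 0. Those of HOXA2, HOXA7, HOXB7, HOXB13 and HOXD10 were farther from 0. With those 7 arrays as the only iUC samples the median was 0.65, against 0.05.

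**Figure D1:**
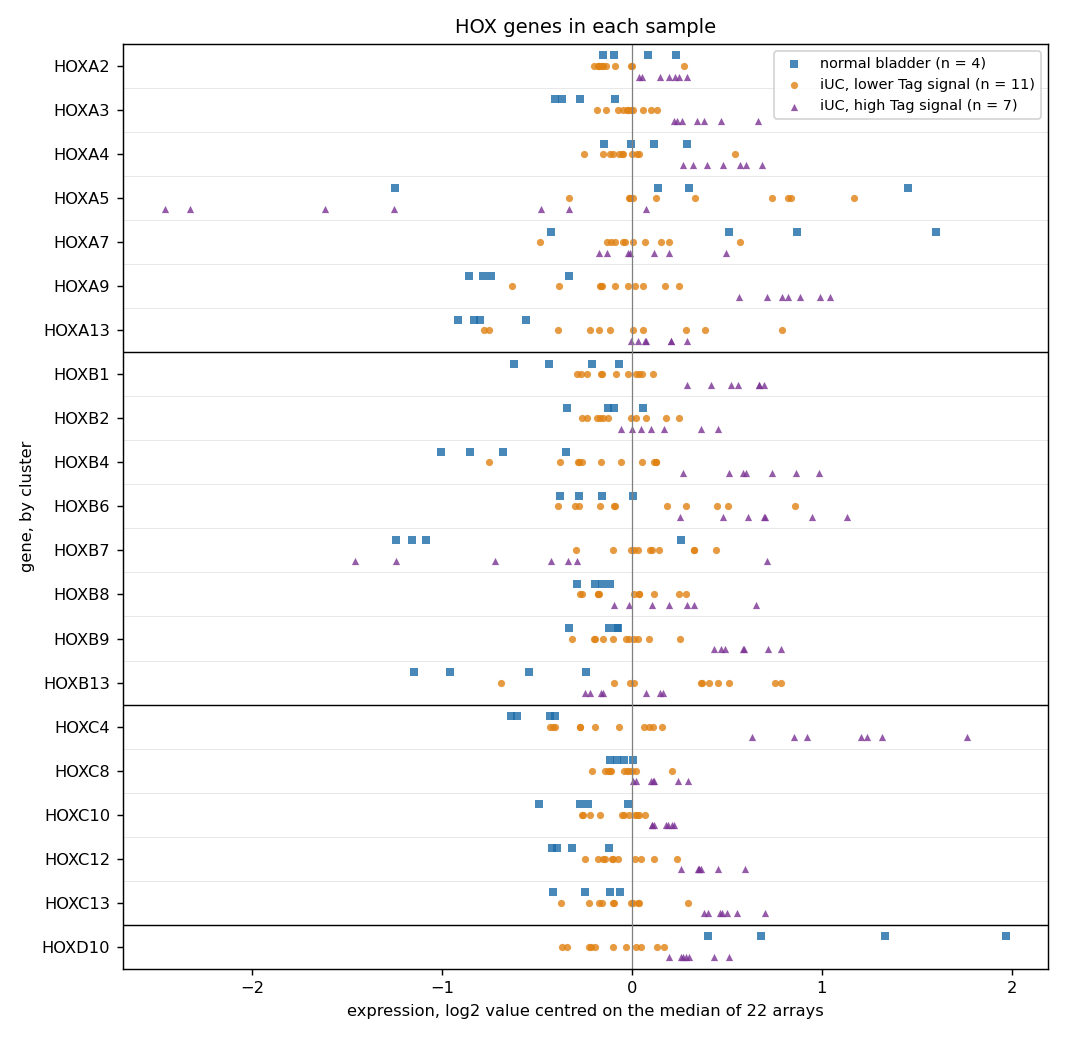
Centred log2 values (x axis) of the 21 HOX genes (y axis, ordered by cluster and paralogue number), with 1 point for each of the 4 normal bladder samples, the 11 iUC samples of lower Tag signal and the 7 iUC samples of high Tag signal. HOXD10 was at 0.40 or above in all normal samples, and in 10 genes, HOXC4 and HOXA9 among them, all 7 arrays of high Tag signal lay above the other 11 iUC arrays.

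HOXD10, a member of the posterior end of its cluster known for patterning the hindlimb and its motor neurons, was read by 2 probe sets that gave different results. The gene's value in normal bladder was 0.40 in replicate 1, 0.68 in replicate 2, 1.34 in replicate 3 and 1.97 in replicate 4. It lay between -0.37 and 0.17 (median -0.10) on the 11 iUC arrays of lower Tag signal, and between 0.20 and 0.51 (median 0.29) on the 7 of high Tag signal. All 11 arrays of lower Tag signal lay below every normal sample, and 5 of the 7 others did, so the groups overlapped through 2 arrays of high Tag signal and normal replicate 1.

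HOXD10 fell by 1.03 on the log2 scale in iUC (standard error 0.20, adjusted p = 0.000439 from limma, n = 18 and 4). Without the arrays of high Tag signal it fell by 1.20 (standard error 0.21, adjusted p = 0.000642 from limma), a comparison in which 11.2% of all genes were called, 5.23% higher and 5.96% lower. With those arrays alone as iUC the difference was -0.78 (standard error 0.24, adjusted p = 0.0141 from limma), under the 2-fold limit. The call was also lost without normal replicate 3 (-0.95), without replicate 4 (-0.74) and with both averaged into 1 sample (-0.85), as well as after quantile normalization (-0.70) and scaling to the 75th percentile (-0.92). A block for the label ending, which sets normal replicate 1 alone against the iUC samples, gave a difference of -0.34 (adjusted p = 0.845 from limma).

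The probe set CfaAffx.20784.1.S1_at carried the HOXD10 difference. Its normal values were 0.76, 1.39, 2.64 and 3.15 in replicates 1 to 4, and its iUC values lay between -0.28 and 0.78 (median -0.06). In 17 of the 18 iUC samples it was below every normal sample. It fell by 1.94 in iUC (standard error 0.27, adjusted p = 1.95e-05 from limma over the 42924 probe sets, of which 14.6% were called, 10.7% lower), and by 1.85 without the arrays of high Tag signal (standard error 0.33, adjusted p = 0.000984). It was called in 10 of 12 other settings, with differences between -2.38 and -0.72, and not with the label ending (-0.72) or the replicate number as a block.

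The other HOXD10 probe set, CfaAffx.20772.1.S1_at, did not pass the test. Its normal values were 0.05, -0.03, 0.03 and 0.80, and all 7 arrays of high Tag signal (0.66 to 0.99) lay above the 11 others (-0.66 to 0.07). Its difference was -0.12 over all iUC samples (standard error 0.30), -0.54 on the arrays of lower Tag signal (adjusted p = 0.0167 from limma) and 0.54 on those of high Tag signal (adjusted p = 0.00829). The direction of this probe set thus changed with the arrays, and that of CfaAffx.20784.1.S1_at did not. The Entrez number that the platform gives for CfaAffx.20784.1.S1_at was not found in the reference table, while that of CfaAffx.20772.1.S1_at is HOXD10 there. The assignment of the probe set that fell therefore rests on the platform's annotation alone.

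Among the iUC samples, the HOXD10 value was compared with the mean of the 20 smooth muscle genes within each set of arrays. Over the 11 arrays of lower Tag signal the gene had a Pearson r of 0.72 (permutation p = 0.0109, adjusted p = 0.0219 over 4 relations) and a Spearman rho of 0.51 (permutation p = 0.114, adjusted p = 0.229). Without the 2 samples farthest from the median of smooth muscle, r was 0.38, so the relation of the gene rested on those samples. CfaAffx.20784.1.S1_at had r = 0.938 (permutation p = 0.00026, adjusted p = 0.00104), rho = 0.809 (permutation p = 0.0037, adjusted p = 0.0148) and r = 0.748 without the 2 farthest samples. Over the 7 arrays of high Tag signal r was 0.08 for the gene (exact permutation p = 0.812, adjusted p = 0.891) with rho = 0.50 (p = 0.267, adjusted p = 0.356). For the probe set r was -0.04 (exact permutation p = 0.891, adjusted p = 0.891) and rho was 0.21 (p = 0.662, adjusted p = 0.662). Without the 2 farthest of those 7 samples, r was 0.71 for the gene and 0.52 for the probe set. Smooth muscle means in normal replicates 1 to 4 were 3.53, 2.40, 3.78 and 4.19. The relation of CfaAffx.20772.1.S1_at, whose Entrez number is HOXD10 in the reference, to smooth muscle was not tested. Among the arrays of lower Tag signal, iUC replicates 15 and 12 had the highest smooth muscle means (0.63 and 0.39). There CfaAffx.20772.1.S1_at was at -0.47 and -0.45, and CfaAffx.20784.1.S1_at was at 0.73 and 0.78.

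**Figure D2:**
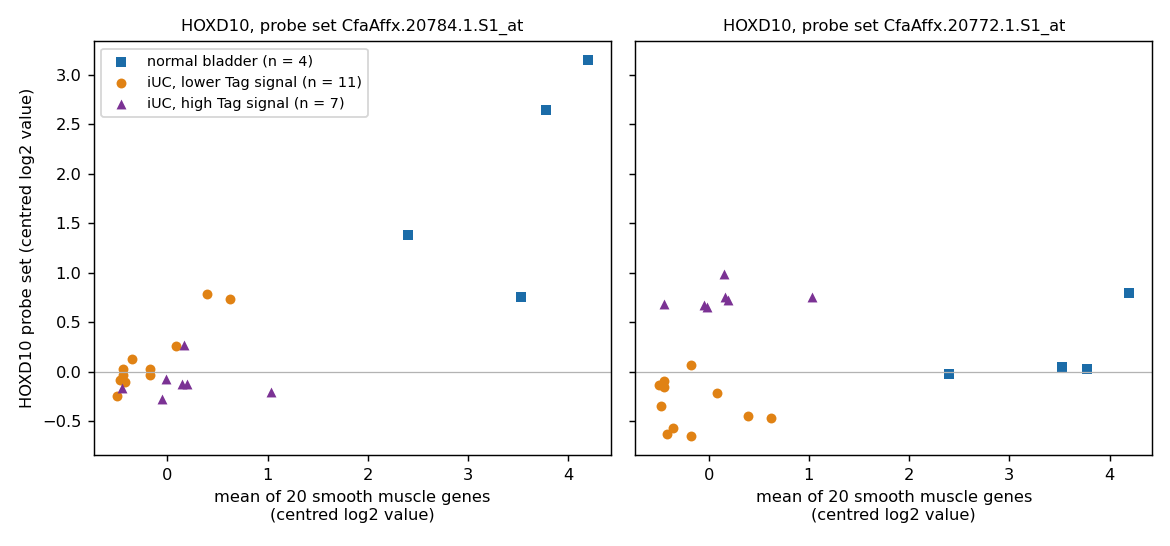
Centred log2 value of each HOXD10 probe set (y axis) against the mean centred log2 value of 20 smooth muscle genes (x axis), with 1 point for each of the 22 samples. CfaAffx.20784.1.S1_at was at 0.76 or above in normal bladder and at 0.78 or below in iUC, and CfaAffx.20772.1.S1_at was at 0.66 or above in all 7 iUC samples of high Tag signal.

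HOXA9, known for its part in blood stem cells and in myeloid leukemia, had the largest difference among the uncalled HOXA genes. In normal bladder HOXA9 was at -0.33, -0.74, -0.86 and -0.78 in replicates 1 to 4. The 11 arrays of lower Tag signal lay between -0.63 and 0.25 (median -0.09), and the 7 of high Tag signal between 0.57 and 1.05 (median 0.82). In 16 of the 18 iUC samples HOXA9 was above every normal sample, and the 2 sets of iUC arrays did not overlap. Its 3 probe sets were not alike. On CfaAffx.5370.1.S1_at the 2 sets overlapped (0.17 to 0.71 at high and -0.44 to 0.38 at lower Tag signal). Without the arrays of high Tag signal CfaAffx.5370.1.S1_s_at, which carries the mark for shared probes, differed by 0.43 (adjusted p = 0.137 from limma). CfaAffx.5370.1.S1_at and CfaAffx.5373.1.S1_at then differed by 0.80 and 0.50 (adjusted p = 0.00238 and 0.00657 from limma). For the gene the difference was 0.94 (standard error 0.26, adjusted p = 0.00838 from limma), just under 2-fold, and 0.58 without the arrays of high Tag signal (standard error 0.14, adjusted p = 0.00546). It passed the fold limit without normal replicate 1 (1.06) and after scaling to the 75th percentile (1.06), where the median of all genes moved from 0.08 to 0.20. HOXA9 was called in 3 of 15 other settings, with differences between 0.58 and 1.51.

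HOXB4, which is known to expand blood stem cells, had the largest difference of the HOXB genes. The 4 normal samples had HOXB4 values of -0.68, -0.35, -0.85 and -1.01, again in the order of the replicates. On the arrays of lower Tag signal it lay between -0.75 and 0.13 (median -0.16), and on those of high Tag signal between 0.27 and 0.99 (median 0.60). As with HOXA9, 16 of 18 iUC samples were above every normal sample and the 2 sets of iUC arrays did not overlap. The difference was 0.88 (standard error 0.24, adjusted p = 0.00888 from limma) and 0.56 without the arrays of high Tag signal (standard error 0.15, adjusted p = 0.0114). Without normal replicate 2 the difference was 1.00 and HOXB4 was called higher. HOXB4 was called in 2 of 15 other settings, with differences between 0.56 and 1.37.

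HOXC4, which lies at the anterior end of its cluster and is active in lymphoid cells, had the largest difference of the HOXC genes and did not pass the test. HOXC4 was at -0.41, -0.43, -0.60 and -0.64 in normal bladder. It lay between -0.43 and 0.16 (median -0.20) on the arrays of lower Tag signal and between 0.63 and 1.76 (median 1.21) on those of high Tag signal. The 2 sets of iUC arrays did not overlap, and the standard deviation of HOXC4 over the 18 iUC samples, 0.702, was above that of 86.3% of all genes. The difference was 0.87 over all iUC samples (standard error 0.34, adjusted p = 0.0528 from limma) and 0.37 without those arrays (standard error 0.12, adjusted p = 0.0253).

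HOXA9, HOXB4 and HOXC4 were called higher with the 7 arrays of high Tag signal as the only iUC samples. Their differences were then 1.51, 1.37 and 1.65 (adjusted p = 2.82e-06, 2.13e-05 and 2.00e-05 from limma), against 0.58, 0.56 and 0.37 with the other 11. Over all genes 24.5% were called in that comparison, 7.16% higher and 17.4% lower. The difference between the 2 sets of arrays in HOX genes cannot be told apart from what sets their control probes apart.

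**Figure D3:**
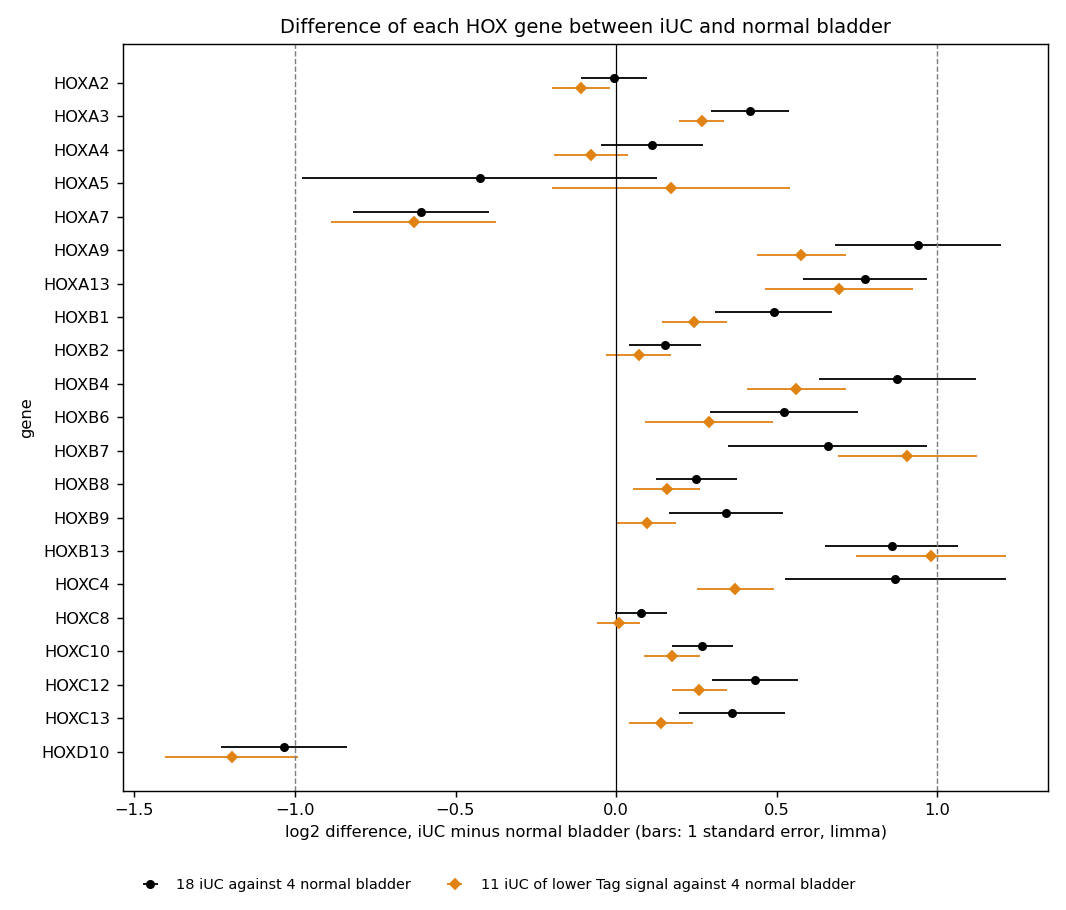
Difference between iUC and normal bladder (x axis, log2, bars of 1 standard error from limma) for each HOX gene (y axis), over 18 iUC samples (black) and over the 11 of lower Tag signal (orange), with dashed lines at a 2-fold change. HOXD10 lay beyond the line in both, at -1.03 and -1.20, and HOXA9, HOXB4 and HOXC4 lay nearer to 0 without the arrays of high Tag signal.

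HOXA13 and HOXB13 belong to the most posterior paralogue group, and both differed from normal bladder by similar amounts with and without the arrays of high Tag signal. HOXC13, of the same group, had a difference of 0.36, and of 0.14 without those arrays. HOXA13 and HOXB13, and HOXA4, HOXA5, HOXA7, HOXB6 and HOXB7 below, are described because of their values. HOXA13 is required for the hindgut, bladder and genital tract to form. Its normal values were -0.80, -0.56, -0.83 and -0.92, and it lay between -0.78 and 0.79 (median -0.11) on the arrays of lower Tag signal and between -0.01 and 0.29 (median 0.08) on those of high Tag signal. In 16 of 18 iUC samples it was above every normal sample. The difference was 0.77 (standard error 0.19, adjusted p = 0.00420 from limma) and 0.69 without the arrays of high Tag signal (standard error 0.23, adjusted p = 0.0289), under 2-fold in both. Within the 11 arrays of lower Tag signal HOXA13 rose with the Tag mean (Pearson r = 0.766, Spearman rho = 0.855, adjusted permutation p = 0.0293 and 0.0164).

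HOXB13, known from the prostate and the hindgut, had normal values of -0.54, -0.24, -0.96 and -1.15. The arrays of lower Tag signal lay between -0.69 and 0.79 (median 0.37) and those of high Tag signal between -0.25 and 0.17 (median -0.15). Here the set of lower Tag signal reached the higher values, and 16 of the 18 iUC samples were above every normal sample. The difference was 0.86 (standard error 0.21, adjusted p = 0.00333 from limma) and 0.98 without the arrays of high Tag signal (standard error 0.23, adjusted p = 0.00508). HOXB13 was called higher with array weights (1.09) and without normal replicate 2 (1.02), 2 of 15 other settings.

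HOXB7, which is active in the duct that forms the kidney's collecting system, had 1 normal sample apart from the others. HOXB7 was at -1.24, 0.26, -1.08 and -1.16 in normal bladder, the second value within the range of the iUC samples of lower Tag signal (-0.29 to 0.45, median 0.10). The arrays of high Tag signal ranged from -1.46 to 0.71 (median -0.43) and so covered the low normal values as well. The difference was 0.66 (standard error 0.31, adjusted p = 0.0942 from limma) and 0.91 without the arrays of high Tag signal (standard error 0.22, adjusted p = 0.00508). Without normal replicate 2 it was 1.01 and HOXB7 was called higher. HOXB7 was called in 2 of 15 other settings, with differences between 0.27 and 1.10.

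The probe sets of HOXB7 also parted. Cfa.15630.1.A1_at had a difference of 0.83 over all iUC samples (standard error 0.58, adjusted p = 0.255 from limma) and of 1.49 without the arrays of high Tag signal, where it was called higher (adjusted p = 0.00334, with 12.3% of all probe sets called). On the arrays of high Tag signal it lay 1.68 lower than on the other iUC arrays and reached -3.15. CfaAffx.25773.1.S1_at had a difference of 0.49 (standard error 0.20, adjusted p = 0.0597) and was higher by 0.41 on the arrays of high Tag signal.

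HOXA5, known for its part in the forming lung, varied most among the iUC samples. In normal bladder it was at -1.25, 1.46, 0.30 and 0.14, on both sides of most iUC samples. The arrays of lower Tag signal lay between -0.33 and 1.17 (median 0.13) and those of high Tag signal between -2.46 and 0.08 (median -1.25), so the sets overlapped and 4 of the 7 lay below the lowest normal value. Its standard deviation over the 18 iUC samples, 1.04, was above that of 97.3% of all genes. The difference was -0.42 (standard error 0.55, adjusted p = 0.546 from limma) and 0.17 without the arrays of high Tag signal.

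HOXA7, which lies beside HOXA5 in the measured part of the cluster, had normal values of -0.43, 1.60, 0.87 and 0.51. It lay between -0.48 and 0.57 (median -0.03) on the arrays of lower Tag signal and between -0.17 and 0.50 (median -0.01) on those of high Tag signal. The wide spread of HOXA7 was thus in normal bladder, where 3 samples lay above all but 1 or all of the iUC samples and replicate 1 lay below all but 1 of them. The difference was -0.61 (standard error 0.21, adjusted p = 0.0316 from limma), under 2-fold, and -0.63 without the arrays of high Tag signal (standard error 0.26, adjusted p = 0.0648).

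Probe sets of HOXA4 and HOXB6 differed from each other as well. For HOXA4 the probe set Cfa.14028.1.A1_at had a difference of -0.35, and CfaAffx.5349.1.S1_x_at, which carries the mark for probes that may cross-match, had 0.57. The mean of both, 0.11, did not pass the test (adjusted p = 0.582 from limma). For HOXB6 CfaAffx.25760.1.S1_at was higher by 1.23 on the arrays of high Tag signal than on the other iUC arrays, while CfaAffx.25767.1.S1_at differed by -0.03. The HOXB6 difference from normal bladder was 0.52 (adjusted p = 0.0776).

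The other 10 members had differences from -0.01 to 0.49. HOXA2, HOXB1 and HOXB2, which pattern the hindbrain and the arches of the head, had differences of -0.01, 0.49 and 0.15. HOXA3, needed for the thymus and parathyroid, had 0.42, with the iUC samples of high Tag signal at 0.23 to 0.66 and the others at -0.18 to 0.13. HOXB8 and HOXB9 had 0.25 and 0.34, HOXC8 and HOXC10 had 0.08 and 0.27, and HOXC12 and HOXC13, of which the latter controls hair keratins, had 0.43 and 0.36. The Entrez number of the HOXC8 probe set CfaAffx.10884.1.S1_at was not found in the reference table. All values of these 10 genes lay between -0.62 and 0.23 in normal bladder and between -0.37 and 0.79 in iUC. For 4 of them, HOXA3, HOXB1, HOXC10 and HOXC12, the adjusted p was 0.05 or below.

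By cluster, the median difference was 0.11 in HOXA, where 4 of 7 genes were above 0, 0.51 in HOXB, where 8 of 8 were, and 0.36 in HOXC, where 5 of 5 were. Without the arrays of high Tag signal the medians were 0.17, 0.27 and 0.18. By paralogue number, the 7 genes numbered 1 to 4 had a median of 0.42, the 6 numbered 5 to 8 of 0.16 and the 8 numbered 9 to 13 of 0.40. Without the arrays of high Tag signal these medians were 0.24, 0.16 and 0.22. The adjusted p was 0.05 or below in 3 of the 7 genes numbered 1 to 4, in 1 of the 6 numbered 5 to 8 and in 6 of the 8 numbered 9 to 13, against 35.7% of all genes. No order along the clusters was tested.

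Among the cancers, many HOX genes moved with the Tag control signal of the arrays. All 7 arrays of high Tag signal lay above all 11 others in 10 of the 21 genes, against 15.9% of all genes, and all 7 lay below in 0 of them, against 12.8%. The 10 were HOXA3, HOXA9, HOXB1, HOXB4, HOXB9, HOXC4, HOXC10, HOXC12, HOXC13 and HOXD10. For HOXD10 the sets differed by 1.08 on CfaAffx.20772.1.S1_at and by -0.24 on CfaAffx.20784.1.S1_at, so the separation came from the former probe set. The mean was higher on the arrays of high Tag signal in 18 of 21 genes, and the median of the difference between the sets was 0.39, against -0.01 over all genes. The exceptions were HOXA5 at -1.53, HOXB7 at -0.64 and HOXB13 at -0.32. Of the 30 probe sets 14 lay wholly above on those arrays, against 14.8% of all probe sets.

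HOXC12 moved most closely with the Tag signal. Over the 11 arrays of lower Tag signal its Pearson r with the Tag mean was 0.958 and its Spearman rho 0.982 (permutation p = 1e-05 for both, the smallest that the permutations can give, and adjusted p = 0.00021 over 21 genes). Without the 2 arrays farthest from the median r was 0.937. The adjusted p of r was 0.05 or below in 7 of the 21 genes, HOXA9, HOXA13, HOXB1, HOXB9, HOXC8, HOXC10 and HOXC12, and that of rho in 6 of these 7, without HOXB9. An r of 0.7 or more was found in 33.3% of the HOX genes and in 15.4% of all genes, with medians of 0.44 and 0.14. The part of the Tag signal in the difference between iUC and normal bladder was not tested. The Tag means of 3 of the 4 normal arrays lay below those of all iUC arrays, and that of replicate 1 lay within their range.

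**Figure D4:**
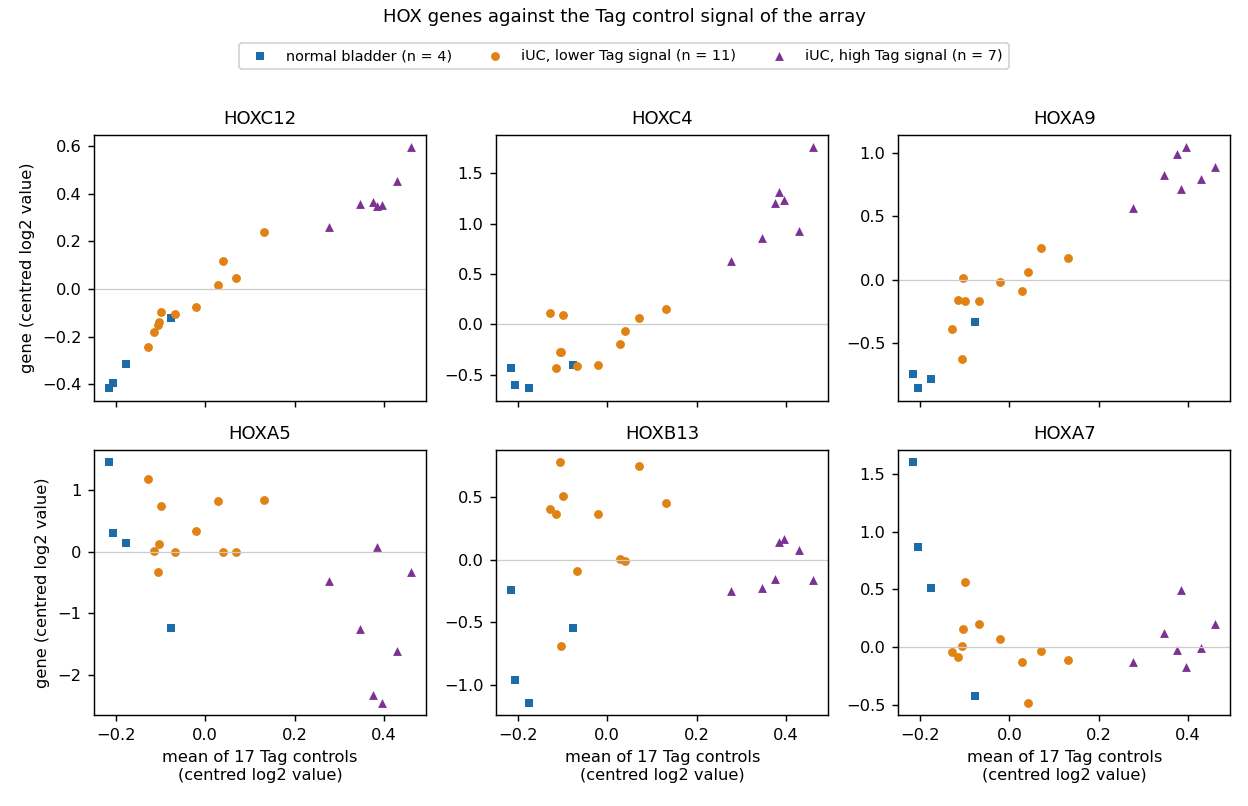
Centred log2 values (y axis, scaled for each gene) of 6 HOX genes against the mean of the 17 Tag control probe sets of the array (x axis, centred log2 values), with 1 point for each of the 22 samples. HOXC12, HOXC4 and HOXA9 were highest on the 7 arrays of high Tag signal, and HOXA5, HOXB13 and HOXA7 were not.

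Genes that work with the HOX proteins were counted in the same comparison, in which 3.68% of all genes were called higher and 8.64% lower. Of 7 measured cofactors of 9 listed, 1 was called lower and the other 6 did not pass the test, and the median difference was -0.19. MEIS2, a homeodomain cofactor of HOX proteins, fell by 1.24 (standard error 0.48, adjusted p = 0.0483 from limma). Its normal values were -0.38, 1.08, 1.52 and 2.18 and its iUC values -1.50 to 1.24 (median -0.01), so the groups overlapped widely. MEIS2 was not called without the arrays of high Tag signal (-1.11, adjusted p = 0.0883) and had a difference of 0.24 with a block for the label ending. The related cofactors MEIS1 (-0.86, adjusted p = 0.00140) and PBX3 (-0.97, adjusted p = 0.00158) lay under the 2-fold limit, and so did MEIS3 (0.87, adjusted p = 0.00420). Like HOXD10, MEIS1, MEIS2 and PBX3 had their lowest normal value in replicate 1. These cofactors, which are also active in mesenchymal tissues, were named after their values were seen, MEIS2 excepted, and the part of cell content was not tested.

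Of 24 measured chromatin regulators of HOX genes 1 was higher and 1 lower, with a median of 0.03, while 12.3% of all genes were called. PCGF2, a subunit of Polycomb repressive complex 1, rose by 1.03 (standard error 0.23, adjusted p = 0.00189 from limma), and EED, a core subunit of Polycomb repressive complex 2, fell by 1.27 (standard error 0.40, adjusted p = 0.0191). The normal values of PCGF2 were -0.68, -0.75, -0.82 and -1.27 and its iUC values -0.59 to 0.78 (median 0.14), with no overlap. Those of EED were 0.38, 0.93, 0.88 and 0.87, within the iUC range of -1.92 to 0.82 for 1 sample and above it for the other 3. EZH2, the methyltransferase of the same complex, had a difference of 0.14 and did not pass the test. Of 11 upstream signals RARG, a retinoic acid receptor, was the one called. RARG rose by 1.14 (standard error 0.24, adjusted p = 0.00113). None of PCGF2, EED and RARG was called without the arrays of high Tag signal, where their differences were 0.77, -0.72 and 0.82.

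Of 32 measured homeobox genes outside the HOX clusters 4 were higher and 1 was lower, with a median of 0.41, beside 3.68% and 8.64% of all genes. IRX5, an Iroquois factor, rose by 1.65 (standard error 0.28, adjusted p = 0.000132 from limma), and its neighbour IRX3 rose by 1.29 (standard error 0.32, adjusted p = 0.00420). The normal values of IRX5 were -1.15, -1.26, -1.92 and -1.52 and its iUC values -0.99 to 1.03 (median 0.28), with no overlap. DLX5, a distal-less factor of bone and limb, rose by 1.44 and OTX1, a factor of the forebrain, by 1.26. PITX1, which gives the hindlimb its identity, fell by 1.48 (standard error 0.29, adjusted p = 0.000652), from normal values of 1.93, 0.30, 1.09 and 2.71 to iUC values of -0.55 to 1.15 (median -0.04). Without the arrays of high Tag signal IRX5, IRX3, DLX5 and PITX1 were still called and OTX1 was not (0.90). With a block for the label ending none of the 9 called genes outside the HOX family kept its call. In 14 of the 32 genes all 7 arrays of high Tag signal lay above the other 11 iUC arrays, against 15.9% of all genes. They did so in 10 of the 21 HOX genes.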

How the data were processed

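Affymetrix Canine 2.0 arrays of 18 iUC and 4 normal bladder samples were analysed. The log2 values that the authors deposited for 43035 probe sets came from GeneSpring GX 12.6.1 and were each centred on its median over the 22 arrays, so no filter on low expression was possible. How probes were summarised and arrays normalized was not given in the sources used here. Without 111 controls, 42924 probe sets were left, of which 29254 name 1 gene, 439 several and 13231 none on the platform's annotation. Probe sets that name the same gene alone were averaged, which gave 15115 genes.

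The groups were tested in limma 3.58.1 (R 4.3.3) without covariates, with Benjamini-Hochberg adjustment over all genes or all probe sets. The same code recovered known changes in simulated independent noise. That noise held no sets of arrays and no related samples, so it does not show how the test behaves with them. Correlations were tested by two-sided permutation, with 100000 permutations for 11 samples and exactly for 7. Cell type, cofactor, regulator and homeobox lists came from general knowledge. Members, lists and tests were chosen with earlier results of these data known. Values by sample are given for called HOX genes, for the uncalled gene with the largest difference in each cluster. Of other lists the called genes are named, at most 4 a direction. Alternatives were other normalizations, array weights, single probe sets, an ordinary t-test without moderation, a filter on spread, blocks, and subsets of the arrays. The same replicate number in both groups marked different dogs. Figures were drawn with matplotlib 3.10.9.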

Additional observations from a re-analysis of the deposited data

Results flagged for a closer look

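HOXB7 in normal bladder had 1 sample far from the others. Replicate 2 lay at 0.26 and the other 3 samples between -1.24 and -1.08, so that the gap to the nearest sample was 0.895 of the whole range, beyond Dixon's critical value for 4 samples. Of the 21 HOX genes tested in normal bladder HOXB7 was the one past this value, and chance gives about 1 in 20.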

How the results depend on the processing

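Of 304 values of HOX genes under other settings 285 stayed on the same side of the threshold, and 8 were no longer called, all of HOXD10. Another 11 became called and 0 were called in the opposite direction. HOXD10, the 1 gene called in the main fit, kept its call in 7 of 15 settings. The other values among the 285 were of the 20 uncalled genes and stayed uncalled. Among the 285, 13 differences that were not called changed sign, in HOXA2, HOXA4, HOXA5 and HOXA7, the last from -0.61 to 0.46 with a block for the label ending. The count of called HOX genes, 1, became 0 with quantile normalization, with normal replicates 3 and 4 as 1 sample and with a block for the label ending. It ranged from 0 to 4 when 1 normal sample was left out, at 2 without replicate 1, 4 without replicate 2, and 0 without replicate 3 or replicate 4. Array weights gave 3 (HOXB7, HOXB13 and HOXD10), and settings chosen after seeing the data gave 3 with the 7 arrays of high Tag signal as the only iUC samples and 10 without a fold limit. Scaling to the 75th percentile gave 1 gene, HOXA9 in place of HOXD10 (-0.92). With the replicate number as a block 1 gene was called, HOXA13, and HOXD10 was not (-0.88, adjusted p = 0.071 from limma), but samples with the same number did not deviate together (correlations of -0.166 to 0.131), and the numbers do not pair the dogs.

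Over all genes 1862 were called (556 higher and 1306 lower), 726 with quantile normalization (295 and 431), 1887 with scaling to the 75th percentile (807 and 1080), 404 with the label ending and 564 with the replicate number as a block, 3705 with the 7 arrays of high Tag signal alone, and 1265 to 2211 with 1 normal sample left out. Genes with 1 or more called probe sets numbered 3240. Of the 7 cofactors, 24 regulators, 11 signals and 32 other homeobox genes measured, 9 were called, beside 12.3% of all genes. The count was 2 with quantile normalization and 1 with the replicate number as a block. It was 4 without the arrays of high Tag signal (11.2% of all genes) and 28 with them alone (24.5%). With 1 normal sample left out it was 6 to 13, and by single probe sets 14, beside 3240 of all 15115 genes. MEIS2 turned to 0.24 with the label ending as a block. For HOXD10 and smooth muscle over 11 samples r = 0.72 became rho = 0.51 and r = 0.38 without the 2 farthest samples. The cause of these changes was not tested. Signal over background could not be judged from centred values, and 4 normal samples limit every comparison.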

Other observations

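A probe set that names both HOXC6 and HOXC4, and so entered no gene, was higher in iUC by 0.40 (standard error 0.09, adjusted p = 0.00276 from limma) and by 0.30 on the 11 arrays of lower Tag signal alone (standard error 0.06, adjusted p = 0.00166), under 2-fold in both. Its normal values were -0.20, -0.42, -0.35 and -0.27, and every iUC sample lay above them, between -0.12 and 0.47.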
